A study of Mus musculus with 8 samples.

Results

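Livers of METTL3-HKD and METTL3-Flox mice were compared for the organic ion and ABC transporters, the membrane proteins that move bile acids, bilirubin, carnitine, sterols, phospholipids, drugs and their conjugates into and out of cells. The members were the protein-coding genes of the deposited table in the families Slc22a, Slco, Abca, Abcb, Abcc, Abcd and Abcg, chosen by symbol with 1 gene left out by the rule, which gave 84 of the 54532 genes listed. The rule itself uses no measured value, although it was set with earlier results of these data known. The values and counts below are for 82 of them. By the known direction of transport, 33 of these were uptake carriers and 17 were efflux pumps of the cell membrane. The remaining members were 5 atypical SLC22 carriers, 8 ABC transporters of mitochondria, peroxisomes and lysosomes, 15 lipid transporters of the ABCA family and 4 other ABC genes. Abca1, also of the ABCA family, was placed with the efflux pumps and is not among the 15.

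Hepatocytes take up solutes from sinusoidal blood through OATP carriers (Slco genes), which handle large organic anions, and through organic cation and anion carriers (Slc22a genes). They then pass substrates or their conjugates to bile through ABC pumps of the canalicular membrane, or back to blood through MRP-type pumps (Abcc genes) of the sinusoidal membrane. SLC22 and SLCO carriers run on substrate gradients and exchange, whereas ABC transporters spend ATP. In cholestatic and inflamed liver, lower uptake carriers and higher sinusoidal export pumps are well known.

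METTL3 is the catalytic subunit of the enzyme that writes m6A on RNA. METTL3-HKD mice (METTL3 flox/-; Alb-iCre) carried a Cre driven by the albumin promoter. The study describes the knockdown as specific to hepatocytes and these mice as heterozygous with reduced METTL3. Cre activity in the other cell types of the liver is not given in the sources used here. METTL3-Flox mice (METTL3 flox/flox) were littermates, with exon 4 of METTL3 between loxP sites. All 8 mice, 4 per group, had 1 h of partial warm ischemia and 6 h of reperfusion (I/R), so no value below is a difference from an unoperated liver, and neither the age of these mice nor the lobe taken is given in the sources used here. The injury was not equal: at this time the study found more necrosis, higher serum ALT and AST and more TUNEL-positive cells in METTL3-HKD mice. Genotype and severity of injury cannot be told apart in the values below.

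Levels are FPKM (fragments counted on a gene, divided by its length in kilobases and by library size), and rebuilt reads on genes ran from 15861245 to 18434488 per liver. Genes averaging 0.1 FPKM or more over the 8 livers, 16645 in all, were compared with limma on log2(FPKM + 0.1), with Benjamini-Hochberg adjustment over all of them, and higher and lower below mean an adjusted p under 0.05. Mettl3 itself lay between 1.16 and 1.84 FPKM in the 8 livers (log2 fold change −0.16 with a standard error, SE, of 0.165, adjusted p = 0.556), and a value over the whole gene is not a check of a deletion of exon 4. Albumin and 6 other hepatocyte markers summed to 25610 to 36790 FPKM in METTL3-HKD livers and to 33184 to 38354 FPKM in METTL3-Flox livers, and 0 of 7 passed the test, 0 also at an unadjusted p under 0.05. All 7 nevertheless had a negative log2 fold change (median −0.36), the smallest in albumin (−0.03), the largest part of the sum in every liver. Markers of other cell types did move with the genotype (over all genes tested, 9.05% were higher and 6.63% lower). The 6 neutrophil markers summed to 326 to 1600 FPKM in METTL3-HKD livers and to 12.7 to 43.7 FPKM in METTL3-Flox livers, with 6 of 6 higher. Monocyte and macrophage markers (3 of 6 higher) summed to 34.2 to 112 FPKM against 23.0 to 32.3 FPKM. Of these, Chil3 alone stood at 20.5 to 79.4 FPKM against 0.725 to 3.75 FPKM. Adgre1 (−0.68) and Csf1r (−0.58) had negative log2 fold changes and did not pass. Cholangiocyte markers (5 of 6 higher) summed to 119 to 370 FPKM against 52.6 to 77.7 FPKM, most of it from Spp1 in every liver. Kupffer cell markers (4 of 5 lower) summed to 59.1 to 132 FPKM against 134 to 336 FPKM. Sinusoidal endothelial markers (1 of 6 lower) summed to 50.8 to 57.5 FPKM against 56.2 to 66.4 FPKM, and stellate cell markers (1 higher and 2 lower of 5) to 33.5 to 44.3 FPKM against 35.0 to 66.3 FPKM. Red cell markers (2 of 3 higher) summed to 165 to 524 FPKM against 44.4 to 98.2 FPKM, whereas Alas2 among them had a negative change and did not pass (−0.98, adjusted p = 0.103). Lymphocyte markers, of which 1 of 4 was tested, summed to at most 1.75 FPKM in any liver. Skeletal muscle markers stood at 53.6 FPKM in METTL3-HKD liver 1 and 93.1 FPKM in METTL3-HKD liver 3 and at no more than 0.0428 FPKM in any of the other 6. In whole tissue, fewer cells of a type and less RNA per cell cannot be told apart, and the part of these cell types in the transporter values was not tested.

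Transporter genes changed in both directions (the plot of log2 fold changes by role). Of the 82 members, 53 reached the minimum mean and were tested. Upregulated and downregulated are used where such a gene also had a log2 fold change of 1 or more, or of −1 or less. Among the tested members, 5 were upregulated (9.43%, against 4.70% of all genes tested) and 3 downregulated (5.66%, against 1.52%). In all, 9 were higher (17%, against 9.05%) and 8 lower (15.1%, against 6.63%), and the median log2 fold change was −0.05, against −0.0028 over all genes. The groups did not overlap, with METTL3-HKD above, for 11 members (20.8%, against 12.7%) and, with METTL3-HKD below, for 8 (15.1%, against 9.95%). The balance of directions moved with the processing, and over all genes it moved as well. Scaling to reads on genes gave 10 upregulated and 1 downregulated member (1043 and 133 genes in all, against 782 and 253), voom gave 9 and 4 (799 and 317), and a pseudocount of 1 FPKM gave 1 and 2 (317 and 88). The counts also rest on few livers: without METTL3-HKD liver 2 the counts fell to 4 higher and 3 lower, without METTL3-HKD liver 1 to 5 and 4, and without METTL3-Flox liver 3 to 4 and 2. The count of lower members was also 2 without METTL3-Flox liver 2 or liver 4, and 5 without METTL3-HKD liver 4.

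Efflux genes had 6 of 15 tested members higher (40.0%, against 9.05% of all genes tested) and 2 lower (13.3%, against 6.63%). Their median log2 fold change was 0.40. The 6 included the lipid transporters Abca1, Abcg5 and Abcg8, whereas Abca8b, which was downregulated, was counted in the ABCA class. Uptake genes had 3 of 15 higher (20%) and 2 lower (13.3%), with a median of 0.12. The uptake median turned negative with the minimum mean set to 1 FPKM, which tests 9 of these genes (−0.56). The uptake counts became 5 higher and 5 lower without METTL3-HKD liver 3, and 1 was lower without METTL3-HKD liver 2 or METTL3-Flox liver 2, 3 or 4. The 8 intracellular ABC genes had 2 lower and 0 higher, with 4 lower and 1 higher at an unadjusted p under 0.05, which 15.1% and 16.7% of all genes tested reached (median −0.43). The 8 tested ABCA lipid transporters had 1 lower and 0 higher, with 3 lower and 0 higher at an unadjusted p (median −0.29), and the 3 tested other ABC genes had 1 lower. The 4 tested atypical SLC22 genes had 0 in either direction with limma, and 1 had a negative change with an unadjusted p under 0.05. The difference between the classes is a description without a test of its own, and omissions moved the efflux count more than its median: 2 efflux genes were higher without METTL3-HKD liver 2 or METTL3-Flox liver 3, and 3 without METTL3-HKD liver 1 or METTL3-Flox liver 1 or 2. Without METTL3-Flox liver 1 the efflux median was 0.27, and without METTL3-Flox liver 4 it was 0.62. Counted by whole families, the medians were −0.06 for the 19 tested Slc22a and Slco genes and −0.04 for the 34 tested Abc genes.

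**Figure D1:**
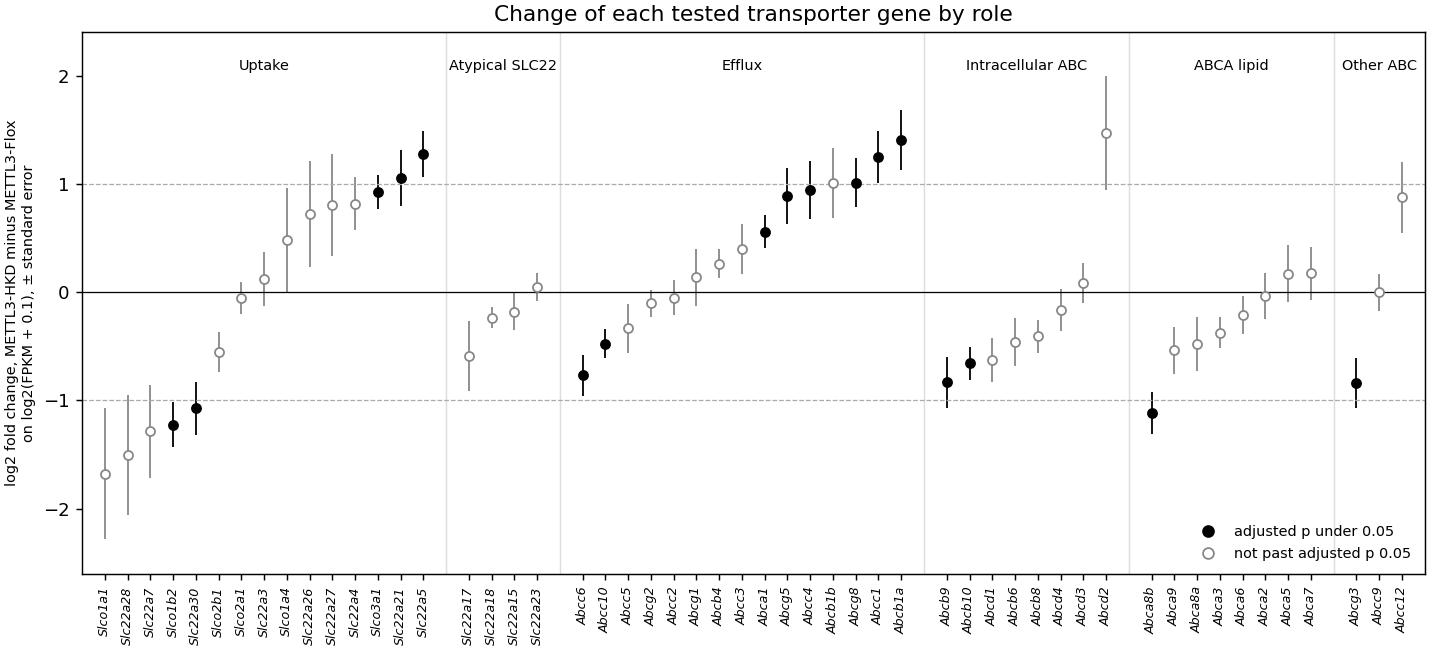
Log2 fold change of each of the 53 tested transporter genes, METTL3-HKD minus METTL3-Flox on log2(FPKM + 0.1), grouped by role on the x axis, with bars of 1 standard error and filled points for an adjusted p under 0.05. The values run from −1.68 (Slco1a1) to 1.47 (Abcd2), neither of them past the threshold. Above 0, 6 of 15 efflux genes and 3 of 15 uptake genes are filled (9.05% of all genes tested), and below 0, 2 of each (6.63%).

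The sum of sinusoidal uptake carriers separated the groups. In this sum 5 hepatocyte carriers of that membrane (Slco1b2, Slco1a1, Slco2b1, Slc22a7 and Slco1a4) together stood at 85.0, 109, 176 and 185 FPKM in METTL3-HKD livers (numbered 1 to 4 in this order) and at 273, 361, 288 and 277 FPKM in METTL3-Flox livers, an order kept for all values below. Every METTL3-HKD liver was below every METTL3-Flox liver, and the ratio of the means was 0.463. Slco1b2 made up most of this sum, and the other 4 genes without it gave 19.1, 23.8, 60.1 and 52.8 FPKM against 51.8, 96.1, 74.1 and 72.7 FPKM, where 2 METTL3-HKD livers passed the lowest METTL3-Flox liver. Of the 5 genes, 1 was lower (6.63% of all genes tested). At an unadjusted p under 0.05, 4 had a negative change (15.1%), and the median log2 fold change was −1.22. The hepatocyte marker sums of the same livers were 25610, 26762, 34676 and 36790 FPKM against 38354, 33897, 33194 and 33184 FPKM, lowest in METTL3-HKD livers 1 and 2 as well, and their part in the uptake sum was not tested.

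Slco1b2, the OATP1B2 carrier of bile acids, bilirubin and statins (ENSMUSG00000030236, chr6:141629518-141686646, plus strand, GRCm38), had the highest level of any uptake member and was downregulated. It stood at 65.9, 85.1, 116 and 132 FPKM in METTL3-HKD livers and at 221, 265, 214 and 205 FPKM in METTL3-Flox livers. The highest METTL3-HKD liver lay well below the lowest METTL3-Flox liver, and the METTL3-HKD livers differed among themselves by more than the METTL3-Flox livers did on the log scale. The means were 99.8 ± 29.9 and 226 ± 26.7 FPKM (SD, n = 4 each), and the log2 fold change was −1.22 with a standard error of 0.210 (adjusted p = 0.0094). Its adjusted p stayed under 0.05 in all 17 alternatives. Its promoter window in RefSeq (250 bases before to 50 after the start of the gene, GRCm38.p6, chr6:141629268-141629567, plus strand) is shown because it is the start region of the called hepatocyte carrier. It is rich in A and T, at 35.3% G and C against a median of 52.7% over all promoters. The letters of the TATA box motif are in capitals. Both matches (from bases 17 and 24) lie near the upstream end of the window, far from the gene start.
Slco1b2: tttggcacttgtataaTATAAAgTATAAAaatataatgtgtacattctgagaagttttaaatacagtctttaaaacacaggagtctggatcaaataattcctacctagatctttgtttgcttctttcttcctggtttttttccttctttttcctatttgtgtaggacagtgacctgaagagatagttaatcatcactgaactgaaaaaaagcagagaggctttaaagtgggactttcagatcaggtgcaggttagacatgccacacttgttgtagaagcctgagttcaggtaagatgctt

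The other 4 sinusoidal carriers did not pass the adjusted threshold. Slco1a1 (OATP1A1, a carrier of steroid conjugates and bile acids) split the METTL3-HKD livers. It stood at 5.55 FPKM in both METTL3-HKD livers 1 and 2 and at 33.4 and 29.8 FPKM in livers 3 and 4, against 31.6, 57.2, 43.2 and 42.4 FPKM in METTL3-Flox livers. Livers 3 and 4 were thus near the lowest METTL3-Flox liver and the first 2 far below it. The log2 fold change was −1.68 with a standard error of 0.607 and an adjusted p of 0.092, and without METTL3-HKD liver 3 the adjusted p was 0.037. Slc22a7 (OAT2, a carrier of small organic anions) stood at 1.59, 2.11, 5.32 and 3.61 FPKM against 4.76, 12.3, 9.45 and 4.49 FPKM, with overlap through METTL3-HKD liver 3 (log2 fold change −1.28, SE 0.430, adjusted p = 0.074). Its adjusted p was 0.035 without that liver.

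Slco2b1 (OATP2B1, which takes up steroid sulphates) stood at 9.25, 12.8, 15.4 and 13.2 FPKM against 14.0, 22.6, 19.6 and 18.5 FPKM. Only METTL3-HKD liver 3 passed the lowest METTL3-Flox liver, and the log2 fold change was −0.56 (SE 0.184, adjusted p = 0.072). The adjusted p was between 0.037 and 0.049 without METTL3-HKD liver 3 or METTL3-Flox liver 1, and with all livers it was 0.034 with array quality weights and 0.037 with the replicate block. Slco1a4 (OATP1A4, a carrier of bile acids and cardiac glycosides) was the exception in direction, at 2.75, 3.27, 5.87 and 6.08 FPKM against 1.48, 3.99, 1.88 and 7.30 FPKM. Its METTL3-Flox livers covered a wider range than its METTL3-HKD livers, and the log2 fold change of 0.48 was within 1 standard error (0.482, adjusted p = 0.533). Slco1b2, Slco1a4 and Slco1a1 are neighbours within the Slco1 cluster of chromosome 6, so genes of 1 cluster had fold changes of both signs.

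**Figure D2:**
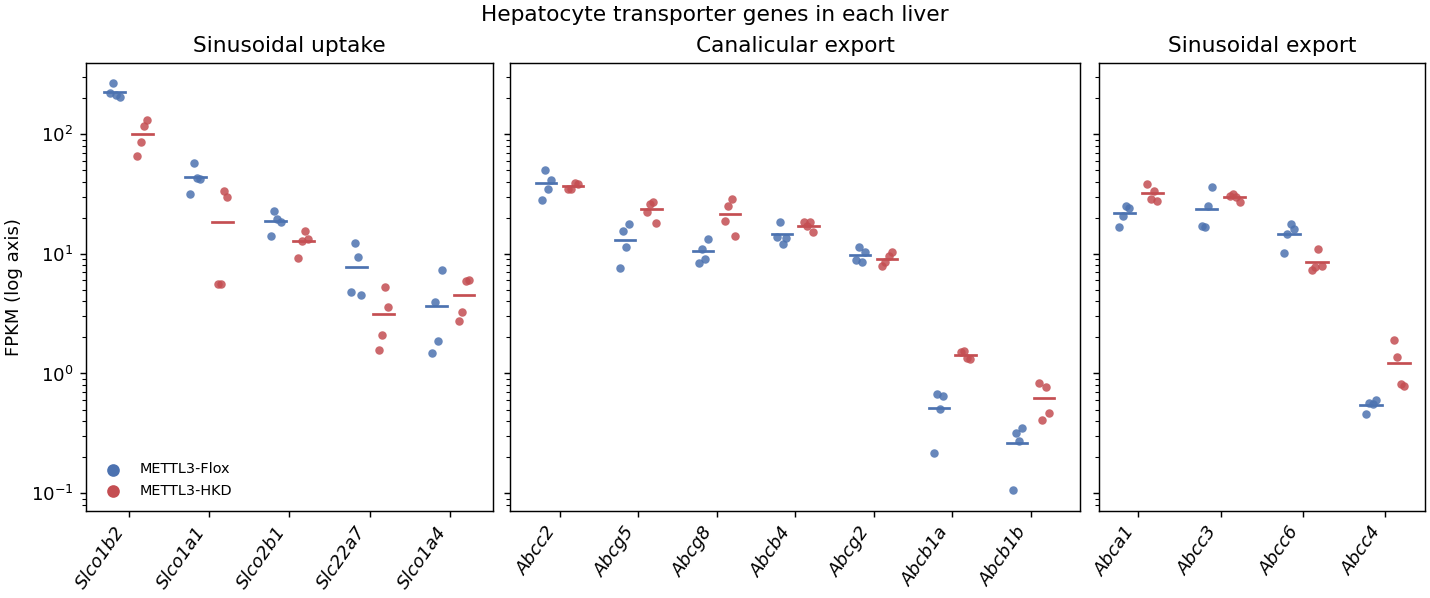
FPKM of 16 hepatocyte transporter genes in each liver on a log axis, by site (sinusoidal uptake, canalicular export, sinusoidal export), with 1 point per liver and a line at the mean of each group. Slco1b2 (65.9 to 132 FPKM against 205 to 265 FPKM) separates the groups downwards, Abcb1a, Abcb1b, Abcg8, Abcg5, Abcc4 and Abca1 separate them upwards, and the 4 METTL3-HKD points of Slco1a1 fall into a low and a high pair.

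Slc22a5 (OCTN2, the sodium-dependent carnitine carrier that supplies fatty acid oxidation; ENSMUSG00000018900, chr11:53864542-53891660, minus strand) was upregulated. It stood at 28.8, 27.7, 24.5 and 20.6 FPKM against 7.38, 12.3, 8.72 and 14.5 FPKM, with a clear gap between the groups. The means were 25.4 ± 3.69 and 10.7 ± 3.28 FPKM (SD, n = 4 each), the log2 fold change was 1.27 (SE 0.212, adjusted p = 0.0084), and the adjusted p stayed under 0.05 in all 17 alternatives. Slc22a21 (OCTN3, a carnitine carrier found in rodents) was upregulated at a much lower level, 0.355, 0.416, 0.258 and 0.340 FPKM against 0.0965, 0.187, 0.0902 and 0.0852 FPKM. Its log2 fold change was 1.05 (SE 0.259, adjusted p = 0.029), and the adjusted p was between 0.064 and 0.081 without METTL3-HKD liver 1, 2 or 4 or METTL3-Flox liver 3 or 4, and 0.065 with the replicate block. At this level the size of the change depends on the pseudocount, with 0.27 at 1 FPKM and 1.55 with voom.

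Reads of these paralogs can be confused: 27.0% of the 50-base windows of Slc22a5 transcripts also occur in Slc22a21 transcripts, and 23.8% the other way round. Summed over both genes, a comparison chosen after the values were seen, the levels were 29.2, 28.1, 24.8 and 20.9 FPKM against 7.47, 12.5, 8.81 and 14.6 FPKM, a log2 fold change of 1.28. Nearly all of this sum is Slc22a5, so it cannot show whether the reads listed for Slc22a21 came from that gene. Both genes and Slc22a4 (OCTN1, a carrier of ergothioneine) stand side by side on the minus strand of chromosome 11. Slc22a4, named after its values were seen, was at 1.77, 1.93, 1.02 and 1.18 FPKM against 0.606, 1.09, 0.644 and 0.803 FPKM, overlapping through METTL3-HKD liver 3 (log2 fold change 0.82, SE 0.247, adjusted p = 0.055). The promoter window of Slc22a5 (RefSeq, GRCm38.p6, chr11:53891654-53891953, minus strand) is shown as the start region of the called carnitine carrier and differs in make-up from that of Slco1b2, with 72.7% G and C. Capitals mark the GC box letters on either strand, 5 matches of which 2 overlap.
Slc22a5: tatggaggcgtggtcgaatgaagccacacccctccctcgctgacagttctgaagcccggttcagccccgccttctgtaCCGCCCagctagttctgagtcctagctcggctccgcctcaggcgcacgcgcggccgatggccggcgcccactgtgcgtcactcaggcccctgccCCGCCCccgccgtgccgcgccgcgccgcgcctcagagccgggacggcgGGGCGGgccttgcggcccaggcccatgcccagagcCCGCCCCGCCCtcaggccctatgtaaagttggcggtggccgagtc

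A further pair of uptake members passed the threshold, both outside the 5 hepatocyte carriers. Slco3a1 (OATP3A1, a broadly expressed carrier of prostaglandins and thyroxine) was higher, at 1.17, 1.23, 1.18 and 1.33 FPKM against 0.747, 0.540, 0.637 and 0.491 FPKM. Its METTL3-HKD livers were nearly alike (mean 1.23 ± 0.0749 FPKM, SD, n = 4, against 0.604 ± 0.113 FPKM), with a log2 fold change of 0.93 (SE 0.157, adjusted p = 0.0090), and it stayed higher in all 16 alternatives that tested it. Slc22a30, a rodent carrier without a well-established substrate, was downregulated at 6.05, 7.89, 12.2 and 12.8 FPKM against 15.8, 20, 23.9 and 19.8 FPKM. The groups did not overlap and the log2 fold change was −1.07 (SE 0.241, adjusted p = 0.022), with an adjusted p of 0.052 to 0.064 without METTL3-HKD liver 2 or METTL3-Flox liver 2, 3 or 4.

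Slc22a30 shares 32.0% of its 50-base windows with Slc22a28, which was named for that reason after its values were seen and stood at no more than 1.45 FPKM in any liver. The sum of both, most of it Slc22a30, had a log2 fold change of −1.10. The remaining uptake members that were tested (Slc22a3, Slc22a26, Slc22a27, Slc22a28 and Slco2a1 besides those above, named here as the rest of the class) had log2 fold changes of −1.50 to 0.80 and none passed. Slc22a3 shares 420 exon bases with Plg on the opposite strand, a gene at a mean of 551 FPKM, and with the strand setting not given in the sources used here its mean of 0.839 FPKM cannot be assigned to it.

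Canalicular export genes among the members had 3 of 7 higher and 0 lower (9.05% and 6.63% of all genes tested). At an unadjusted p under 0.05, 0 were lower (15.1% of all genes), and 4 of 7 separated the groups upwards (12.7%). Abcg5 and Abcg8 encode the partners of the dimeric pump that moves cholesterol and plant sterols into bile, and both were higher. Abcg8 (ENSMUSG00000024254, chr17:84676302-84700333, plus strand) was upregulated at 18.6, 25.3, 28.4 and 14.1 FPKM against 8.45, 11, 9.09 and 13.3 FPKM. Abcg5 (ENSMUSG00000040505, chr17:84658234-84683011, minus strand) stood at 22.5, 26.1, 27.3 and 18.0 FPKM against 7.65, 15.6, 11.4 and 17.8 FPKM. In both genes METTL3-HKD liver 4 was the lowest of its group and METTL3-Flox liver 4 was close beneath it. The log2 fold changes were 1.01 for Abcg8 (SE 0.230, adjusted p = 0.022) and 0.89 for Abcg5 (SE 0.255, adjusted p = 0.046). The adjusted p of Abcg8 was between 0.059 and 0.065 without METTL3-HKD liver 2 or METTL3-Flox liver 3, and that of Abcg5 between 0.059 and 0.111 without METTL3-HKD liver 1, 2 or 3 or METTL3-Flox liver 1, 2 or 3.

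These sterol transporter genes start head to head on opposite strands and share 82 exon bases, 3.02% of Abcg5 and 2.19% of Abcg8. Their promoter windows are shown because 2 members that moved together read outwards from the same stretch: 209 bases (chr17:84682962-84683170, GRCm38.p6), in capitals, belong to both windows, read from opposite strands. Abcg8 also has a RefSeq window at the more upstream start that the deposited table gives for it (chr17:84676052-84676351), which is not shown.
Abcg8 (chr17:84682871-84683170, plus strand): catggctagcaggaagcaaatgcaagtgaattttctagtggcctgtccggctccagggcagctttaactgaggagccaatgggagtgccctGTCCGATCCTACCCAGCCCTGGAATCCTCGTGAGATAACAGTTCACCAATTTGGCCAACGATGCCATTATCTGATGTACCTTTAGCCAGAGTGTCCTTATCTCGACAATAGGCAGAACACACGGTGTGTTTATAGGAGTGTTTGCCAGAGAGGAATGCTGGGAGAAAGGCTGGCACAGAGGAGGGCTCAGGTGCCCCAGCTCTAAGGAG
Abcg5 (chr17:84682962-84683261, minus strand): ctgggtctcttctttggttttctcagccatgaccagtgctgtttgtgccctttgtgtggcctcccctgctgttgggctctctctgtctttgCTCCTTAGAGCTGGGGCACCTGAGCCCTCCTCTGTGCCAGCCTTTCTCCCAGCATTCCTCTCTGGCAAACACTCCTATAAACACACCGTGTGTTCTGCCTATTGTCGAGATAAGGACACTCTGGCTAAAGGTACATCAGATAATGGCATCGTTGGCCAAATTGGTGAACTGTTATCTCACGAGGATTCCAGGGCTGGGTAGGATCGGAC

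Abcb1a and Abcb1b both encode P-glycoprotein in mice, the pump of many lipophilic drugs. Abcb1a (ENSMUSG00000040584, chr5:8660077-8748575, plus strand) was upregulated, at 1.52, 1.55, 1.34 and 1.32 FPKM against 0.218, 0.678, 0.504 and 0.646 FPKM. All METTL3-HKD livers stood above all METTL3-Flox livers, with means of 1.43 ± 0.119 and 0.512 ± 0.210 FPKM (SD, n = 4 each) and a log2 fold change of 1.40 (SE 0.276, adjusted p = 0.014). Its adjusted p stayed under 0.05 in all 16 alternatives that tested it, and its log2 fold change was 0.70 with a pseudocount of 1 FPKM. Abcb1b stood at 0.834, 0.406, 0.769 and 0.471 FPKM against 0.106, 0.318, 0.272 and 0.35 FPKM, likewise without overlap but not past the threshold (log2 fold change 1.01, SE 0.321, adjusted p = 0.064). It passed with protein-coding genes only, voom and scaling to reads on genes (adjusted p 0.044 to 0.049, log2 fold change 1.01 to 1.28). They share 15.5% of the 50-base windows of Abcb1a and 18.0% of those of Abcb1b, and the sum of both had a log2 fold change of 1.39.

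The 3 other canalicular pumps among the members did not pass the threshold. Abcc2 (MRP2, which exports conjugated bilirubin) stood at 34.5, 34.9, 38.8 and 38.5 FPKM against 28.4, 50.2, 35.0 and 41.5 FPKM (log2 fold change −0.05, SE 0.162, adjusted p = 0.865). Abcb4 (MDR2, the phosphatidylcholine floppase) stood at 18.3, 17, 18.3 and 15.3 FPKM against 13.8, 18.4, 12.2 and 13.5 FPKM, and 1 METTL3-Flox liver stood above the METTL3-HKD range, the other three below it (0.26, SE 0.134, adjusted p = 0.213). Abcg2 (BCRP, a pump of sulphate conjugates and urate) stood at 7.92, 8.54, 9.62 and 10.3 FPKM against 8.92, 11.4, 8.55 and 10.3 FPKM (−0.10, SE 0.124, adjusted p = 0.608). For all 3 the groups overlapped.

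Sinusoidal export had 2 of 4 members higher and 1 lower (9.05% and 6.63% of all genes tested). Abcc4 (MRP4, which returns bile acids and cyclic nucleotides to blood) was higher at 1.90, 1.36, 0.815 and 0.783 FPKM against 0.463, 0.562, 0.556 and 0.603 FPKM. METTL3-HKD livers 1 and 2 stood apart from livers 3 and 4, and the log2 fold change was 0.95 (SE 0.269, adjusted p = 0.045). Abca1, which loads cholesterol onto apolipoprotein A-I, was higher at 38.3, 28.6, 33.5 and 27.6 FPKM against 16.9, 20.8, 25.1 and 24.3 FPKM, a smaller change of 0.56 (SE 0.154, adjusted p = 0.041). Both calls were lost under several settings. The adjusted p of Abcc4 was between 0.081 and 0.110 without METTL3-HKD liver 1 or 2 or any 1 METTL3-Flox liver, and that of Abca1 between 0.059 and 0.104 without METTL3-HKD liver 1, 2 or 3 or any 1 METTL3-Flox liver. With all livers, neither passed without a minimum, without the mean-variance trend, with array quality weights or with the replicate block (adjusted p 0.054 to 0.096), nor Abcc4 with a pseudocount of 1 FPKM (0.064).

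Abcc6, an ABC protein of the hepatocyte that mediates ATP release, was lower. It stood at 7.34, 7.77, 11 and 7.98 FPKM against 10.2, 14.8, 17.8 and 16.1 FPKM, with METTL3-HKD liver 3 above METTL3-Flox liver 1 (log2 fold change −0.77, SE 0.191, adjusted p = 0.029). The adjusted p was between 0.064 and 0.080 without METTL3-HKD liver 1, 2 or 4 or METTL3-Flox liver 2, 3 or 4. Abcc3 (MRP3, a pump of glucuronides) stood at 30.5, 31.5, 30.0 and 27.2 FPKM against 17, 16.6, 25.0 and 36.2 FPKM. Its METTL3-HKD livers lay within a narrow band that METTL3-Flox liver 4 exceeded, so the groups overlapped (0.40, SE 0.229, adjusted p = 0.260), and without that liver the adjusted p was 0.046.

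Among the pumps not assigned to a hepatocyte membrane here, Abcc1 (MRP1, a pump of glutathione conjugates and leukotriene C4, found in most tissues) was upregulated. It stood at 0.856, 0.502, 0.422 and 0.503 FPKM against 0.163, 0.148, 0.205 and 0.185 FPKM. The groups were far apart, and the log2 fold change was 1.25 (SE 0.242, adjusted p = 0.013). The adjusted p stayed under 0.05 in all 16 alternatives that tested it, and the log2 fold change was 0.41 with a pseudocount of 1 FPKM. METTL3-HKD liver 1, the highest in Abcc1, Abcc4 and Abca1, also had the highest neutrophil marker sum (1600 FPKM, against 326 to 535 FPKM in the other METTL3-HKD livers). The same held for its monocyte and macrophage sum (112 FPKM, against 34.2 to 58.6 FPKM). Its cholangiocyte sum (370 FPKM, against 119 to 194 FPKM) and red cell sum (524 FPKM, against 165 to 394 FPKM) were highest as well. Its hepatocyte sum was the lowest (25610 FPKM, against 26762 to 36790 FPKM). The Kupffer cell sum was highest in METTL3-HKD liver 2 (132 FPKM) and the stellate cell sum in METTL3-HKD liver 3 (44.3 FPKM). The other higher efflux genes did not peak in liver 1: Abcg5 and Abcg8 were highest in METTL3-HKD liver 3 and Abcb1a in METTL3-HKD liver 2. The part of any of these cells in Abcc1, Abcc4 and Abca1 was not tested. Abcc10 (MRP7, a pump of lipophilic drugs) was lower at 0.950, 0.766, 1.05 and 0.942 FPKM against 1.26, 1.34, 1.34 and 1.35 FPKM (−0.48, SE 0.133, adjusted p = 0.043). Its adjusted p was between 0.053 and 0.101 without any 1 liver other than METTL3-HKD liver 3.

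The export genes with a hepatocyte site among the members (7 canalicular and 4 sinusoidal) summed to 182, 183, 200 and 161 FPKM against 112, 160, 145 and 175 FPKM. Genes outside the members are not in this sum, so it is not the whole of hepatocyte export. METTL3-Flox liver 4 exceeded METTL3-HKD liver 4, and the ratio of the means was 1.23. The sum for sinusoidal uptake divided by the sum for export was 0.466, 0.595, 0.879 and 1.15 in METTL3-HKD livers and 2.43, 2.25, 1.98 and 1.59 in METTL3-Flox livers. This ratio is taken within each liver, so the scaling between libraries cannot move it, and it did not overlap between the groups. Slco1b2 made up most of the uptake sum, and no p is given for the ratio.

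**Figure D3:**
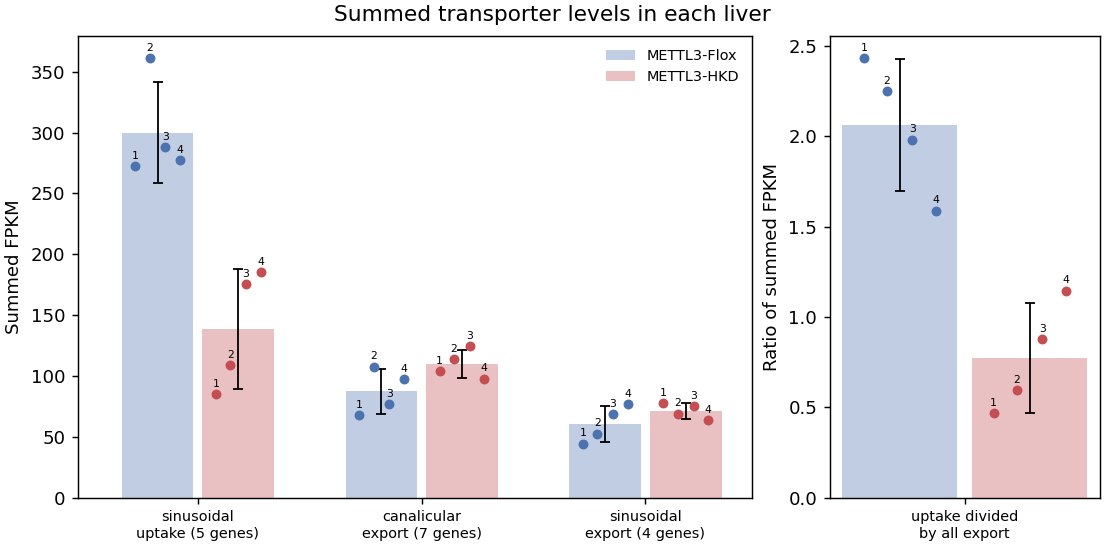
Summed FPKM of the sinusoidal uptake, canalicular export and sinusoidal export genes in each liver (left) and the ratio of uptake to all export (right), with numbered points for livers, bars for group means and error bars of 1 SD (n = 4). The uptake sums of METTL3-HKD livers (85.0 to 185 FPKM) lie below those of METTL3-Flox livers (273 to 361 FPKM), whereas both export sums overlap between the groups.

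Of the intracellular ABC transporters, 2 were lower. Abcb10 (an inner mitochondrial membrane protein needed for heme formation) was lower at 4.08, 4.71, 6.71 and 6.12 FPKM against 8.71, 8.49, 8.23 and 8.24 FPKM. The METTL3-Flox livers were tightly grouped and above all METTL3-HKD livers, with a log2 fold change of −0.66 (SE 0.152, adjusted p = 0.024). Its adjusted p was between 0.054 and 0.062 without METTL3-HKD liver 2 or METTL3-Flox liver 2, 3 or 4. Abcb9 (TAPL, a lysosomal peptide transporter) was lower at 0.222, 0.242, 0.277 and 0.442 FPKM against 0.503, 0.740, 0.658 and 0.488 FPKM (−0.83, SE 0.236, adjusted p = 0.045), and lost the call without any 1 liver other than METTL3-HKD liver 4 (adjusted p 0.054 to 0.112).

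Abcd3 (PMP70 of the peroxisome membrane) was the most abundant gene of this class and did not pass, with means of 46.0 ± 6.31 and 44.1 ± 12.2 FPKM (SD, n = 4 each, log2 fold change 0.09). Abcb8, a mitochondrial ABC protein, did not pass either, at 4.87, 4.78, 6.82 and 6.77 FPKM against 7.66, 9.06, 7.02 and 6.97 FPKM, with METTL3-HKD livers 3 and 4 close beneath the METTL3-Flox range (−0.41, SE 0.153, adjusted p = 0.101). Abcd2, a peroxisomal carrier of very long-chain fatty acids that was named after its values were seen, had the widest spread of this class, at 2.42, 3.54, 1.27 and 1.83 FPKM against 0.473, 2.27, 0.664 and 0.293 FPKM. METTL3-Flox liver 2 alone reached the METTL3-HKD range (1.47, SE 0.528, adjusted p = 0.090).

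Of the ABCA lipid transporters, Abca8b (ENSMUSG00000020620, chr11:109932190-109995845, minus strand), a member of the family linked to cholesterol efflux, was downregulated. It stood at 2.24, 2.62, 2.39 and 3.18 FPKM against 5.38, 5.87, 8.03 and 4.24 FPKM, without overlap (log2 fold change −1.12, SE 0.193, adjusted p = 0.0096), and the adjusted p stayed under 0.05 in all 17 alternatives. Its neighbours on chromosome 11 did not pass, among them Abca6, the most abundant ABCA lipid transporter of the class, at 36.3 ± 5.66 and 42.4 ± 9.20 FPKM (SD, n = 4 each, −0.21). Abca3, the lamellar body phospholipid transporter, was at 4.42 ± 0.279 and 5.84 ± 1.13 FPKM (SD, n = 4 each, −0.37, adjusted p = 0.105), with an adjusted p of 0.041 without METTL3-Flox liver 1. Abcg3, a rodent ABCG gene, was lower at 0.868, 1.02, 0.530 and 0.561 FPKM against 1.68, 1.19, 1.54 and 1.12 FPKM (−0.84, SE 0.231, adjusted p = 0.041), and lost the call without any 1 liver other than METTL3-HKD liver 2 (adjusted p 0.060 to 0.105). Abcc9, the SUR2 subunit of potassium channels, had a log2 fold change of 0.00 (SE 0.171), and Abcc12 stood at 0.179, 0.301, 0.166 and 0.146 FPKM against 0.0212, 0.0372, 0.0692 and 0.131 FPKM. The groups of Abcc12 did not overlap (0.87, SE 0.329, adjusted p = 0.103), and with voom it passed (1.73, adjusted p = 0.038). The atypical carriers Slc22a18, Slc22a23 and Slc22a15 did not pass, at −0.24, 0.04 and −0.18 on the log2 scale.

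Further calls were also lost with all livers kept. Abcg8 and Abcb10 lost theirs with the replicate block (adjusted p 0.055 and 0.053), Abcg5, Abcb9, Abcc10 and Abcg3 in 4 settings each (0.052 to 0.228), and Abcc6 without the mean-variance trend and with scaling to reads on genes (0.051 and 0.106).

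**Figure D4:**
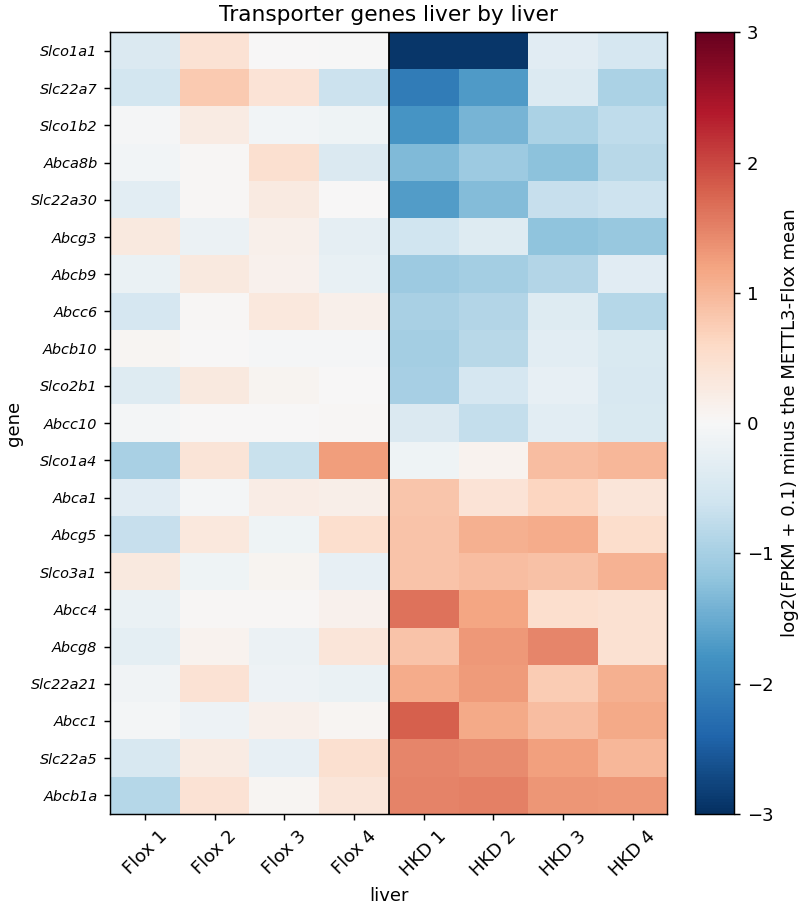
Heat map of 21 genes, those past an adjusted p of 0.05 together with the remaining sinusoidal uptake carriers, in each of the 8 livers, as log2(FPKM + 0.1) minus the METTL3-Flox mean of the gene (blue lower, red higher). Slco1a1, Slc22a7 and Slco1b2 are lowest in METTL3-HKD livers 1 and 2, whereas Slc22a5, Slco3a1 and Abcb1a are higher in all 4 METTL3-HKD livers.

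For 29 members no test was made. Their highest mean was 0.0579 FPKM and none had over 17 reads in a liver, and 12 of them were listed at 0 in all 8 livers. They included Slc22a6, Slc22a8, Slc22a12 and Slc22a13, carriers known from the kidney, of which Slc22a12 had 1 read in the highest liver and the other three had none. At the other end, 35 members had a mean of at least 1 FPKM and 16 of at least 10 FPKM.

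Of 15 transcription factors and nuclear receptors that are known to control transporter genes, 4 were lower (6.63% of all genes tested) and 1 was higher (9.05%), and 6 lay below the METTL3-Flox range without overlap (9.95%). Nr1h4 (FXR, the bile acid receptor) stood at 21.3, 26.9, 41.2 and 38.5 FPKM against 51.8, 61.5, 59.7 and 62.1 FPKM, with a log2 fold change of −0.92 (SE 0.20, adjusted p = 0.019). Cebpa, a factor of the differentiated hepatocyte, stood at 67.7, 112, 117 and 94.6 FPKM against 169, 189, 169 and 196 FPKM (−0.91, SE 0.169, adjusted p = 0.012). Hnf4a, a factor of the same kind, was lower by a smaller amount, with means of 111 and 155 FPKM (−0.48, SE 0.103, adjusted p = 0.019), as was Rxra, the partner of the nuclear receptors (−0.45, SE 0.108, adjusted p = 0.026). Nfe2l2 (NRF2, the regulator of antioxidant and conjugation genes) was higher at 17.8, 18.3, 14.1 and 15.3 FPKM against 9.88, 11.5, 11.9 and 12.7 FPKM (0.51, SE 0.116, adjusted p = 0.023).

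Other genes of hepatic transport were bile acid carriers outside the families above, flippases and the proteins that anchor transporters. Of 12 tested, 1 was higher (9.05% of all genes tested) and 1 lower (6.63%). At an unadjusted p under 0.05, 8 had a negative sign (15.1%). Ezr (ezrin, which anchors membrane proteins to actin) was upregulated at 13.7, 7.99, 4.46 and 7.62 FPKM against 2.76, 2.54, 1.80 and 2.36 FPKM (log2 fold change 1.70, SE 0.297, adjusted p = 0.0099). Its order among METTL3-HKD livers had liver 1 highest and liver 3 lowest. So did Spp1, the bulk of the cholangiocyte marker sum (355, 181, 109 and 186 FPKM), and the neutrophil sum (1600, 375, 326 and 535 FPKM). The monocyte and macrophage sum (112, 58.6, 34.2 and 35.6 FPKM) and the red cell sum (524, 369, 165 and 394 FPKM) had the same extremes. Krt19, a keratin of bile duct cells, stood at 3.73, 1.72, 2.75 and 1.31 FPKM in these livers, lowest in liver 4, as were Krt7 and Sox9. The part of any of these cell types in the Ezr value was not tested. Pdzk1, a scaffold protein that binds OATP and OCTN carriers, was lower at 4.57, 5.25, 7.30 and 6.55 FPKM against 9.62, 10.6, 10.7 and 10.9 FPKM (−0.83, SE 0.145, adjusted p = 0.0099). Over both lists together 7 of 27 genes passed, and the number was 3 without METTL3-HKD liver 2 or METTL3-Flox liver 3, 4 without METTL3-Flox liver 4, and 11 without METTL3-HKD liver 3 or METTL3-Flox liver 1.

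RefSeq promoter windows were found for 67 of the 82 members, 78 windows in all, and were searched on both strands for 7 motifs. The antioxidant response element (TGACNNNGC) was in 14.1% of member windows against 12.4% of all 32851 promoters, the AP-1 site (TGANTCA) in 2.56% against 7.81%, and the hypoxia response element (ACGTG) in 17.9% against 19.6%. The CCAAT box (CCAAT) was in 33.3% against 37.4%, the TATA box (TATAAA) in 19.2% against 13.6%, and the GC box (GGGCGG) in 33.3% against 35.7%. The DR1 motif of nuclear receptors was in 0 of the 78 windows and in 0.0396% of all promoters. Matches of different motifs may overlap, and a match describes the letters of the window only.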

How the data were processed

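Livers of 4 METTL3-HKD and 4 METTL3-Flox mice were grouped by their labels. The authors deposited one table of FPKM per gene and liver with gene lengths. The submitters' processing notes name GRCm38 and mm10, and the aligner, counter, annotation and strand are not given in the sources used here. FPKM times length and one effective library size per liver gave whole reads (tolerance 0.05) for 100% of non-zero values. The effective size differed from the reads on genes (14210943 against 16914680 in METTL3-Flox liver 1), so the libraries had been scaled otherwise before deposition. It was below the reads in METTL3-Flox livers 1, 2 and 3 and above them in METTL3-Flox liver 4 and in every METTL3-HKD liver (20114825 against 17237993 in liver 1). The deposited scaling thus set METTL3-HKD values lower against METTL3-Flox values than scaling to reads on genes does. Depth and the voom alternative come from these reads, and voom kept the effective sizes. The 16645 genes averaging 0.1 FPKM or more were tested on log2(FPKM + 0.1) with limma 3.58.1 (lmFit, eBayes with trend, two-sided, Benjamini-Hochberg) in R 4.3.3. The pseudocount understates changes of low genes. The method was tested on simulated data, where it called fewer of the planted genes than the test first asked for. P-values measure the spread between these mice.

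The members, classes and lists were chosen with earlier results of these data known. Of the members, 2 are not reported here and enter no count, sum or median over the members. Named genes were the 16 hepatocyte site members, members past the thresholds, and the most abundant of each class and of those not passing. In the lists, the 3 largest passing changes in each direction were named, with Rxra added after its values were seen. Promoters were also chosen for printing after the values were seen. Shared sequence was counted as 50-base windows of GENCODE M21 transcripts, in which all 82 gene IDs were found. Alternatives changed the pseudocount (1 FPKM) or the minimum mean (1 FPKM, or none), or used no trend, array quality weights, a replicate block, protein-coding genes only, voom, scaling to reads on genes, and the omission of each liver. One hepatocyte marker symbol was not matched.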

Additional observations from a re-analysis of the deposited data

Results flagged for a closer look

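In 4 of the 70 groups of 4 livers examined, 1 liver stood apart from the other three by Dixon's gap ratio (gap to the nearest value over the range), a test that chance alone passes in about 1 of 20 groups. METTL3-Flox liver 1 was the lowest of its group in Slc22a23 at 11.9 FPKM against 16.3 to 17.1 FPKM (ratio 0.844) and in Abcc10 at 1.26 FPKM against 1.34 to 1.35 FPKM (ratio 0.839). METTL3-HKD liver 1 was the highest of its group in Slc22a15 at 0.971 FPKM against 0.677 to 0.714 FPKM (ratio 0.871). METTL3-Flox liver 2 was the highest of its group in Slc22a21 at 0.187 FPKM against 0.0852 to 0.0965 FPKM (ratio 0.889), on 5 to 11 reads in each METTL3-Flox liver.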

How the results depend on the processing

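The adjusted p of Slco1b2, Abca8b, Slc22a5, Abcb1a, Abcc1 and Slco3a1 stayed under 0.05 in every alternative in which the gene was tested, and of all values of single genes under an alternative, 471 kept direction and side of the threshold, 91 lost a call, 12 gained one and 12 changed sign. A pseudocount of 1 FPKM left 1 upregulated member (317 genes in all against 782). A minimum mean of 1 FPKM, which tests 35 members, left 2 upregulated and 4 higher, with 1 higher uptake gene, 3 higher and 1 lower efflux gene, and medians of −0.56 (uptake) and 0.20 (efflux). Without a minimum, 5 members were lower, and 3 efflux genes were higher and 1 lower. Without the mean-variance trend 3 efflux genes were higher and 1 lower. With array quality weights 3 were higher, the efflux median was 0.26 and 11 regulator and other transport genes passed. Voom on rebuilt reads gave 9 upregulated members, and 799 upregulated genes in all. Scaling to reads on genes moved the median of all genes from −0.0028 to 0.20 and gave 10 upregulated (1043 genes in all), 1 downregulated and 4 lower members and 0 lower efflux genes, with medians of 0.31 (uptake) and 0.62 (efflux). It moved the ratio of summed export from 1.23 to 1.41 and that of summed uptake from 0.463 to 0.526. Over all 34 tested Abc genes, taken in place of the efflux class, the median was −0.0424.

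The labels do not say whether equal replicate numbers pair the livers. Deviations of same-numbered livers correlated at −0.084 to 0.071 over genes, which cannot show whether these mice shared a litter or a day of surgery. The fit with the replicate number as a block gave 5 higher members, with 2 efflux genes higher and 1 lower. With 1 liver left out, upregulated members ran from 3 to 6, downregulated from 1 to 5, higher from 4 to 9 and lower from 2 to 10. Uptake genes higher ran from 2 to 5 and lower from 1 to 5, efflux genes higher from 2 to 6 and lower from 0 to 2, the uptake median from 0.0087 to 0.26, the efflux median from 0.27 to 0.62, and regulator and other transport genes from 3 to 11. Among genes without a call, the sign changed with scaling to reads on genes for Abca6 (0.0073), Abcc2 (0.17), Abcg2 (0.11) and Slc22a15 (0.0146), for Abcc2 with single livers left out (−0.1893 to 0.0842), for Abcd3 without METTL3-Flox liver 1 (−0.0343) and for Slc22a23 without that liver (−0.0768, and up to 0.0987 with another left out). Abcc9 turned with a pseudocount of 1 FPKM (−0.0047), voom (−0.0017), and without METTL3-HKD liver 1 (−0.0018) or 3 (−0.05) or METTL3-Flox liver 3 (−0.16). Apart from the stated shift, fewer livers or another set of tested genes, the cause of these moves was not tested. Genes of low level rest on few reads, such as Slc22a21 on 5 to 28 per liver.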

Other observations

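METTL3-HKD livers 1 and 2 were the lowest of their group in 5 of 5 sinusoidal uptake genes and in 8 of 15 tested uptake genes (53.3%), against 23.2% of all genes tested. They were the highest in 6 of these 15 (40.0%), against 25.0% of all genes, and in 0 of the 5. Among the 15 tested efflux genes, METTL3-HKD livers 1 and 2 were the lowest in 3, against 23.2% of all genes. The same livers were the highest in 5 of these efflux genes, against 25.0% of all genes. This order was looked at after the values had been seen, and it is a description of 4 livers without a test.

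All 8 livers had Ddx3y, a gene of the Y chromosome, at 12.1 to 17.8 FPKM and Xist at no more than 0.00899 FPKM, a check made after the values were seen because several hepatic Slco1a and Slc22a genes are known to differ between the sexes in mice.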
